A study of Homo sapiens with 36 samples.

Results

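The collagen and laminin genes, which encode the main structural chains of the extracellular matrix, were described across 12 bulk RNA libraries of HEK293 cells. Members were taken by gene symbol, COL or LAM with its chain number, and that rule uses no measured value, although the family was picked with earlier results of these data known. They numbered 56 of 36601 genes, of which 44 were collagens and 12 were laminins. Enough reads for a test were found for 30 of the 56 members (21 collagens and 9 laminins), among 14892 genes tested in all. The libraries came from a human cell line of embryonic kidney origin whose cells had received a pooled guide library and a donor construct that places a HaloTag, a protein tag that binds its ligands covalently, in endogenous genes. Clones numbered 4 and 5 were each sequenced with DMSO, the vehicle, and with 25 µM HyT36, a hydrophobic HaloTag ligand meant to make the tagged protein misfold, with 3 libraries in each of these 4 groups. The labels name exposures of 2 and 12 h, but the sources used here do not say which one applies to these libraries, nor which protein is tagged in each clone. Each clone is a single line, so an effect of the tag and any other difference between clones cannot be told apart, and no untagged cells were among the 12 libraries. Of the 36 samples of the series, the other 24 were not analysed here.

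Collagen chains wind into a triple helix in the endoplasmic reticulum before secretion. Fibrillar collagens such as COL1A1 and COL2A1 build fibres, collagen IV chains form the network of basement membranes, and smaller families join fibres to their surroundings or span the cell membrane. Laminins are crosses of an alpha, a beta and a gamma chain that polymerise on the cell surface and bind integrins and other receptors. The kidney is a tissue where both the laminin beta chain and the collagen IV chains are exchanged for others as the glomerular basement membrane matures.

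The start regions of 6 members are shown because LAMB1 and LAMB2 differed in opposite directions between the clones, and because the 4 tested collagen IV genes, all higher in clone 5, form divergent pairs. RefSeq promoter windows on GRCh38.p14, from 250 bases before to 50 bases after a start site, were available for 41 of the 56 members (55 windows). COL4A5 (chrX:108439588-108439887, plus strand) and COL4A6 (chrX:108439409-108439708, minus strand, 1 of its 2 windows) had start sites 380 bases apart, and their windows shared 121 bases, in capitals:
COL4A5: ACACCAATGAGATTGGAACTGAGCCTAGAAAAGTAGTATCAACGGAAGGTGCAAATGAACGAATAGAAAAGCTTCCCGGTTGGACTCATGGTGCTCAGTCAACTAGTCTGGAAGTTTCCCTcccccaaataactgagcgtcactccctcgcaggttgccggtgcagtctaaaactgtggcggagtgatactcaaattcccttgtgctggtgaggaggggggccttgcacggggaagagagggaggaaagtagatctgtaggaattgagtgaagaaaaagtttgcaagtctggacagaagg
COL4A6: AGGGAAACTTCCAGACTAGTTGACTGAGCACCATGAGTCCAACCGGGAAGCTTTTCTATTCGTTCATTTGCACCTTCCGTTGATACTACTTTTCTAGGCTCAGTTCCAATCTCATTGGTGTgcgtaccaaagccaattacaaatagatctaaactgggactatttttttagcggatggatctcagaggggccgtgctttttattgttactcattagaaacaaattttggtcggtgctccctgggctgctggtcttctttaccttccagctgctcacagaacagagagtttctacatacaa
COL4A3 (chr2:227164374-227164673, plus strand) and COL4A4 (chr2:227164156-227164455, minus strand) had start sites 419 bases apart, and their windows shared 82 bases, again in capitals:
COL4A3: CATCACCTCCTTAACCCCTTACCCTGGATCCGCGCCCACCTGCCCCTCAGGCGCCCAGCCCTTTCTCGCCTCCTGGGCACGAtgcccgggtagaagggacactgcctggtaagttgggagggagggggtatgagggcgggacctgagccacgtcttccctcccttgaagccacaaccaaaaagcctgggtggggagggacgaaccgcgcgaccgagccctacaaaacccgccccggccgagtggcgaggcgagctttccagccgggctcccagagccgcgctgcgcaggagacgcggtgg
COL4A4: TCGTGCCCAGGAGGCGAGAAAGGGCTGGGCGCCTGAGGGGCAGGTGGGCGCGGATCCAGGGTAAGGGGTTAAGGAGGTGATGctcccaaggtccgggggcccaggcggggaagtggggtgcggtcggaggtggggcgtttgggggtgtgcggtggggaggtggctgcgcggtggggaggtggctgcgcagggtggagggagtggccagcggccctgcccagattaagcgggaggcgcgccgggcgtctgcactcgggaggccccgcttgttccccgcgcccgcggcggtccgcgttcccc
In the windows of LAMB1 (chr7:108003112-108003411, minus strand) and LAMB2 (chr3:49133001-49133300, minus strand), capitals mark GGGCGG, the core of the GC box, on either strand:
LAMB1: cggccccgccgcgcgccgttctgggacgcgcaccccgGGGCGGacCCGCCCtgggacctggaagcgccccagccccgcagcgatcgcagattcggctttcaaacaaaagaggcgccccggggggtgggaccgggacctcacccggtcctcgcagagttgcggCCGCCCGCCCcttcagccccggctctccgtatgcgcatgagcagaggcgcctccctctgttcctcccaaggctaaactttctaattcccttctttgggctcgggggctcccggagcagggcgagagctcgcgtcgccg
LAMB2: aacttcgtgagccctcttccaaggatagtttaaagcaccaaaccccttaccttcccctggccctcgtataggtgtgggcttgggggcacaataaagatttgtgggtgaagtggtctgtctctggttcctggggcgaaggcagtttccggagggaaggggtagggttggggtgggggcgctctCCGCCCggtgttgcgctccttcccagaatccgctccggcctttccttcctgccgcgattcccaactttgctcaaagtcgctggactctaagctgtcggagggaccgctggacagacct
GGGCGG, searched on both strands with overlapping matches counted, matched 4 times for LAMB1 and 1 time for LAMB2. It occurred in 32 of the 55 member windows, against 44.95% of all 35116 windows of this length, TATAAA in 8 (11.53% of all) and CCAAT in 16 (34.61% of all). The matches are letters in a window and were not linked to any measurement here.

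Gene counts per library ranged from 22853946 to 28635511. Levels are given in CPM, gene counts scaled to the library total with TMM factors. They are not divided by transcript length, so they compare a gene between libraries and not 1 gene with another. Epithelial transcripts set the libraries apart across the groups. For clone 4 the 19 epithelial marker genes summed to 130.5, 5.73 and 5.49 CPM in the DMSO libraries and to 5.30, 80.3 and 80.7 CPM in the HyT36 libraries. For clone 5 they summed to 68.7, 93.6 and 74.5 CPM under DMSO and to 8.21, 6.73 and 7.72 CPM under HyT36. There the sum moved with the ligand, but the markers did not move alike. Of 16 tested, 1 passed there (ESRP1, edgeR adjusted p = 0.015), where 8.19% of all genes tested did. Their log2 fold changes ran from -8.29 to 0.04, the latter for CDH1, at a median of -2.94. The keratin KRT5 was at 0 reads in all 12 libraries. In bulk RNA, more cells of a type and more RNA per cell cannot be told apart. Clone 4 DMSO replicate 1 also had the highest summed level of 13 fibroblast and mesenchymal markers, 267.7 CPM against 164.3 to 226.1 CPM in the other 11 libraries, with FAP at 0 reads throughout. Most of that sum was FN1, at 178.9 CPM there and 90.6 to 129.5 CPM in the other 11 libraries, and DCN had 0 to 2 reads per library. Of the 7 HEK293 markers, LIN28B, PAX2, VIM and CD24 were present in both clones, with CD24 2.31-fold lower in clone 5, and NEFL and NEFM had 0 to 3 reads per library. Of the 5 tested, 4 passed as lower in clone 5 without ligand and 0 as higher, where 28.2% of all genes were lower. With DMSO the 7 summed to 594.7 CPM in clone 4 and 393.5 CPM in clone 5. LIN28A was at 18.8 to 22.6 CPM in clone 4 and at 0.0365 to 0.125 CPM in clone 5. The part of these transcripts in the results that follow was not tested, except where a value without the library or within the epithelial split is given.

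The clones differed in their collagen and laminin repertoire in both directions. Without ligand 10 of the 30 tested members were higher and 9 lower in clone 5 than in clone 4 at a Benjamini-Hochberg adjusted p under 0.05 (edgeR quasi-likelihood test), in a comparison where 55.5% of all genes tested passed (27.3% higher, 28.2% lower). With HyT36 all 19 passed again and 12 members in all were higher and 9 lower, where 56% of all genes passed (27% higher, 28.9% lower). These shares are near the background, so the counts are not a result about the members. How many of all genes had no overlap between the clones' libraries was not counted. The median log2 fold change of the 30 members was -0.07 without ligand, also with COL9A1 at its bound, and 0.14 with HyT36, against 0.0017 and -0.0047 over all genes tested. Past a 2-fold difference, a limit chosen after the values were seen, were 8 members without ligand and 10 with HyT36, where 12.6% of all genes were past it in both comparisons. All collagens together were at 730.9 ± 9.03 CPM in clone 4 and 425.8 ± 6.60 CPM in clone 5 with DMSO, and all laminins at 487.8 ± 17.0 and 532.1 ± 13.8 CPM (SD, n = 3).

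**Figure D1:**
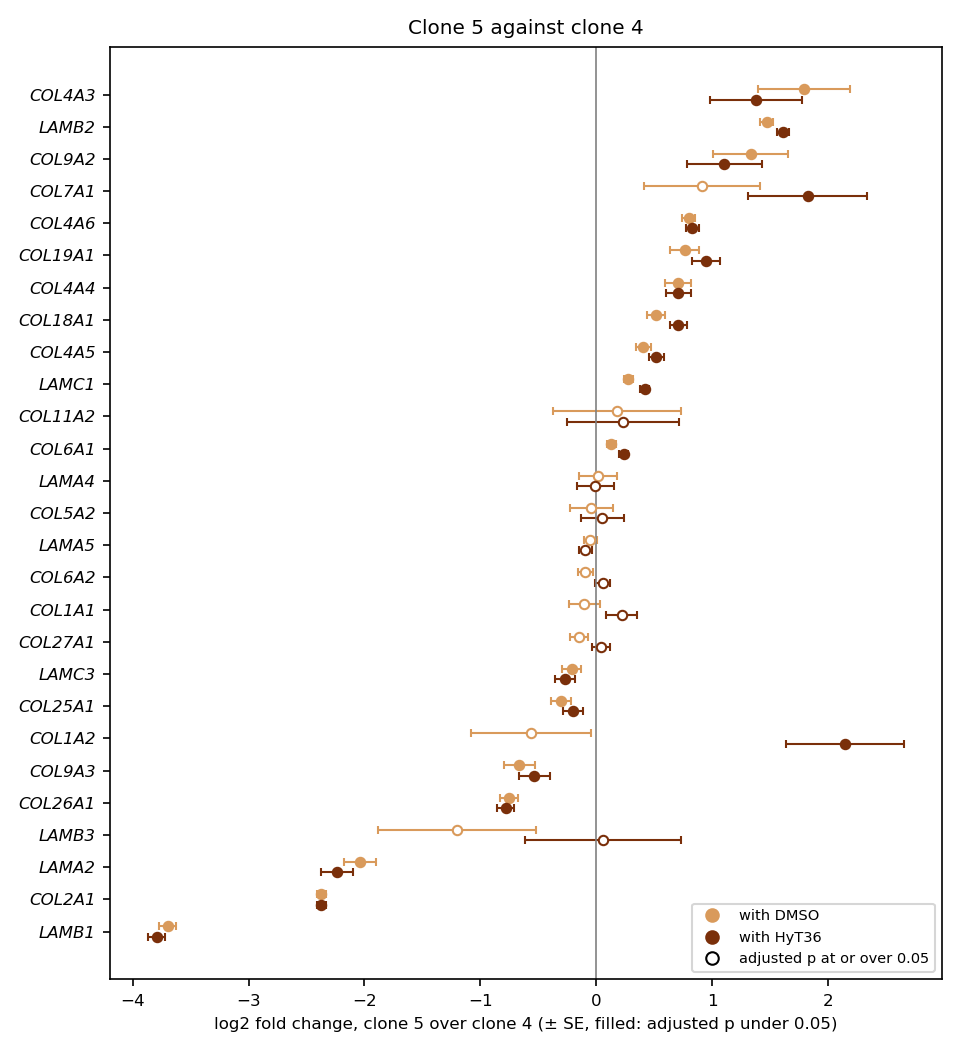
Log2 fold change of clone 5 over clone 4 (x axis, ± SE) for 27 tested members (y axis), with DMSO in light brown and with HyT36 in dark brown; filled points passed an adjusted p of 0.05. COL8A2 and COL9A1, with 7 or fewer reads per clone 5 group, are left out. LAMB1, COL2A1 and LAMA2 lie farthest to the left and COL4A3, LAMB2 and COL9A2 to the right with DMSO.

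Transcripts of the laminin beta chains LAMB1 and LAMB2 differed in opposite directions between the clones. LAMB1, the beta chain of most embryonic and widely expressed laminins (chromosome 7, 107923799 to 108003161), was at 76.1, 74.3 and 72.8 CPM in clone 4 and at 5.04, 5.92 and 6.20 CPM in clone 5 with DMSO. LAMB2, the beta chain of laminins of the mature glomerulus and the neuromuscular junction (chromosome 3, 49121114 to 49133050), was at 42.8, 35.2 and 36.0 CPM in clone 4 and at 104.8, 104.5 and 105.5 CPM in clone 5. Neither gene's libraries overlapped between the clones. LAMB1 was 13.0-fold lower in clone 5 (log2 fold change -3.69 ± 0.07, SE, edgeR adjusted p = 2.6e-34) and LAMB2 2.77-fold higher (1.47 ± 0.05, edgeR adjusted p = 2.4e-25). With HyT36 the log2 fold changes were -3.79 and 1.61.

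The LAMB1 to LAMB2 read ratio was 1.78 to 2.37 in the 6 clone 4 libraries and 0.0455 to 0.0610 in the 6 clone 5 libraries. The beta chains summed to nearly the same level in all groups: 113.2 ± 6.38 CPM (DMSO) and 117.0 ± 1.12 CPM (HyT36) for clone 4, and 111.0 ± 0.865 CPM (DMSO) and 116.3 ± 1.50 CPM (HyT36) for clone 5 (SD, n = 3). That sum is in reads and not in molecules, since no transcript length was used. Within 1 Mb of LAMB1 the median log2 fold change was -0.13 over 11 genes, of which 1 was higher and 5 lower (-0.52 to 0.28). Within 1 Mb of LAMB2 it was -0.16 over 49 genes, of which 4 were higher and 23 lower (-1.35 to 1.93). LAMB4 had 1 read in the 12 libraries together.

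**Figure D2:**
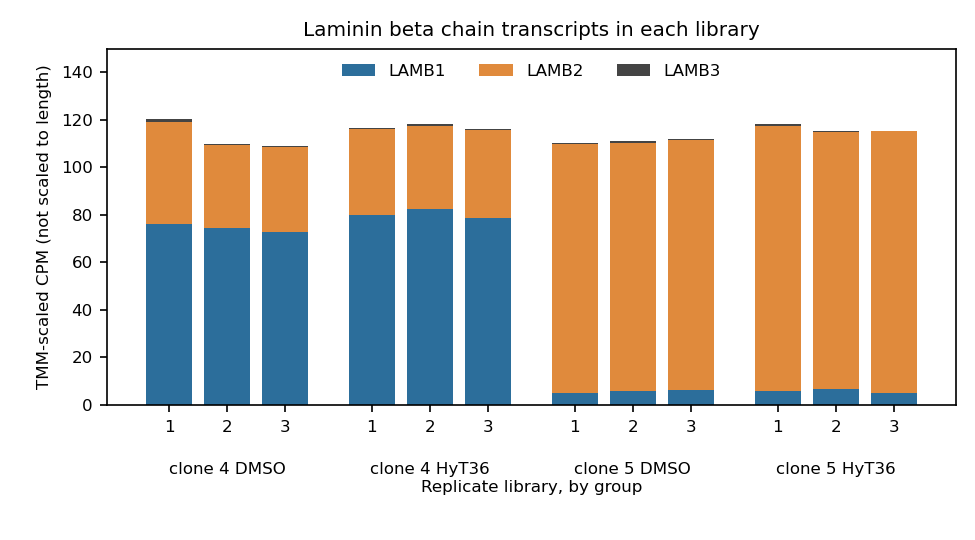
Level of LAMB1 (blue), LAMB2 (orange) and LAMB3 (dark grey) in each of the 12 libraries, as stacked TMM-scaled CPM on the y axis, by group and replicate on the x axis. LAMB1 makes up the larger share in every clone 4 library and LAMB2 in every clone 5 library, at column heights of 109.1 to 120.6 CPM.

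Among the alpha chains, which carry the receptor-binding end of a laminin, LAMA2 differed and LAMA4 and LAMA5 did not pass. LAMA2, the alpha chain of muscle and Schwann cell basement membranes, was at 8.59, 9.26 and 9.87 CPM in clone 4 and at 2.33, 2.17 and 2.22 CPM in clone 5 with DMSO, with no overlap. It was 4.12-fold lower in clone 5 (log2 fold change -2.04 ± 0.14, SE, edgeR adjusted p = 3.9e-16). LAMA5, the most widely made alpha chain of adult epithelia, was at 61.4, 58.3 and 55.3 CPM in clone 4 and at 52.0, 61.7 and 55.0 CPM in clone 5. Its ranges overlapped (log2 fold change -0.05 ± 0.06, edgeR adjusted p = 0.43), as did those of LAMA4, a chain of vessel walls and muscle, at 3.39 to 4.04 and 3.46 to 3.86 CPM (0.01 ± 0.16, edgeR adjusted p = 0.95). LAMA1, an embryonic alpha chain, had 1 read in all libraries together.

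Of the gamma chains, LAMC1 is the partner in most laminins, and it held 57.4 to 58.6% of laminin reads in clone 4 and 63.9 to 67.9% in clone 5, not scaled to length. LAMC1 (chromosome 1, 183023420 to 183145592) was at 290.7, 283.3 and 275.4 CPM in clone 4 and at 330.0, 345.6 and 352.2 CPM in clone 5 with DMSO. All clone 5 libraries were above all clone 4 libraries, by 1.21-fold (log2 fold change 0.28 ± 0.04, SE, edgeR adjusted p = 6.7e-08). LAMC3, a gamma chain first found outside typical basement membranes, was at 16.3, 16.8 and 18.9 CPM in clone 4 and at 16.9, 14.9 and 13.1 CPM in clone 5. The ranges overlapped, and its lower level in clone 5 (log2 fold change -0.21 ± 0.08, edgeR adjusted p = 0.031) did not pass in 6 of 19 alternatives, among them without clone 4 DMSO replicate 3 (-0.15) and without clone 5 DMSO replicate 2 (-0.21) or 3 (-0.13).

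All 4 tested collagen IV chains were higher in clone 5 without ligand, where 27.3% of all genes tested were higher. COL4A5 and COL4A6 lie on the X chromosome, where 84.85% of tested genes were higher. The chains that form the common network of basement membranes, COL4A1 and COL4A2, were barely read at 1 to 9 and 0 to 15 reads per library. The 6 collagen IV genes summed to 66.3 ± 2.05 CPM in clone 4 and 103.3 ± 2.64 CPM in clone 5 with DMSO, and to 67.9 ± 0.849 and 110.3 ± 4.13 CPM with HyT36 (SD, n = 3). COL4A6, which pairs with COL4A5 in some epithelial basement membranes, was at 30.9, 32.4 and 31.2 CPM in clone 4 and at 54.1, 56.6 and 53.3 CPM in clone 5 with DMSO. It was 1.74-fold higher (log2 fold change 0.80 ± 0.06, SE, edgeR adjusted p = 1.3e-15). COL4A5, the X-linked Alport syndrome gene, was at 29.5, 25.3 and 29.1 CPM in clone 4 and at 37.2, 38.1 and 35.7 CPM in clone 5. It was 1.32-fold higher (log2 fold change 0.41 ± 0.06, edgeR adjusted p = 8.2e-07). For both genes every clone 5 library was above every clone 4 library.

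The whole X chromosome was higher in clone 5 along with this pair. Of 482 tested X-linked genes 409 were higher and 30 lower, with a median log2 fold change of 0.90, while the medians of the autosomes lay between -0.07 and 0.04. Within 1 Mb of COL4A5 the median over 6 genes was 0.89, with 4 higher and 0 lower. COL4A6 at 0.80 and COL4A5 at 0.41 were therefore both below the X chromosome's median, and what the chromosome's shift contributes to them was not tested. The COL4A5 to COL4A6 read ratio was 0.782 to 0.958 in clone 4 and 0.669 to 0.744 in clone 5, and these ranges did not overlap.

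The chromosome 2 pair, COL4A3 and COL4A4, encodes the other chains of the mature glomerular network. COL4A4 was at 5.04, 6.04 and 6.58 CPM in clone 4 and at 9.21, 9.57 and 9.95 CPM in clone 5 with DMSO. It was 1.63-fold higher (log2 fold change 0.70 ± 0.11, SE, edgeR adjusted p = 8.6e-07). COL4A3 was low and scattered in clone 4, at 0.550, 0.118 and 0.999 CPM, and was at 2.29, 1.58 and 1.90 CPM in clone 5. It was 3.46-fold higher (1.79 ± 0.40, edgeR adjusted p = 4.9e-04), and without clone 4 DMSO replicate 3 its log2 fold change was 2.53. No clone 5 library overlapped a clone 4 library for either gene. Neighbours within 1 Mb had a median log2 fold change of -0.04 over 5 genes.

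**Figure D3:**
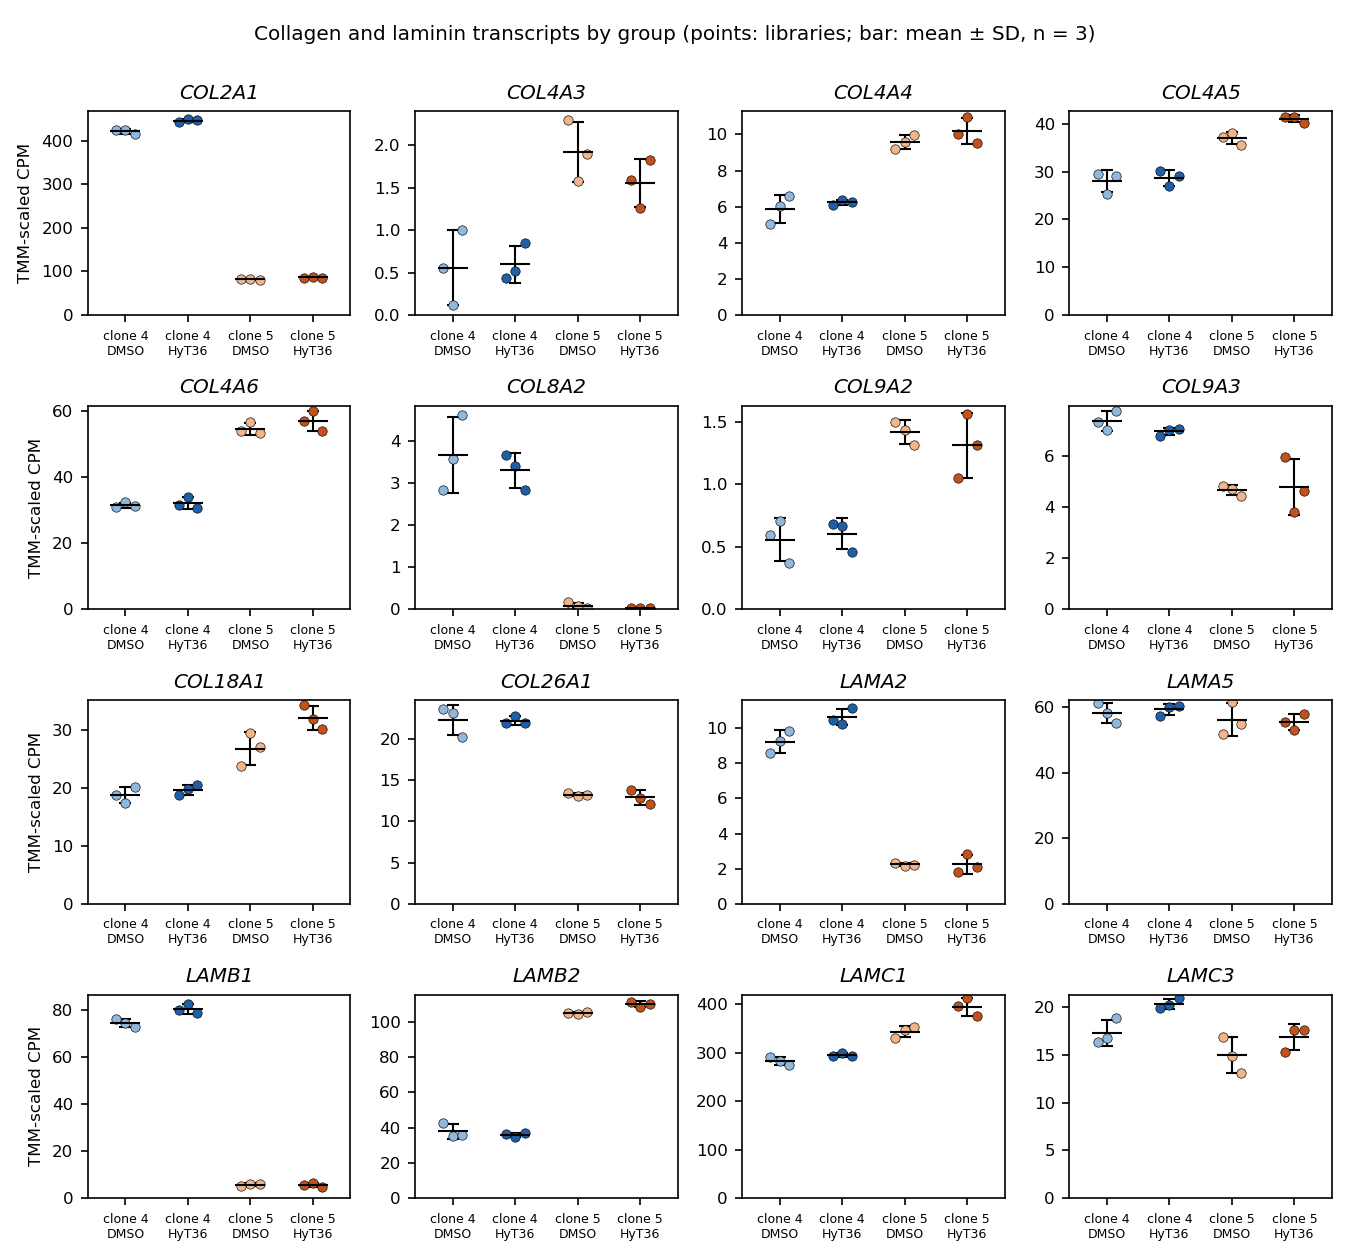
Level of 16 members (y axes, TMM-scaled CPM, each from 0) in the 4 groups (x axes). Points are libraries and bars are the mean ± SD of 3 libraries. The groups of a clone lie together for COL2A1, LAMB1 and LAMB2, and LAMC1 and COL18A1 are higher with HyT36 than with DMSO in clone 5.

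Fibrillar collagens were dominated by COL2A1, the cartilage collagen, which gave 57.5 to 59.2% of collagen reads in clone 4 and 18.3 to 19.6% in clone 5, not scaled to length. COL2A1 (chromosome 12, 47972967 to 48006212) was at 424.6, 425.3 and 415.8 CPM in clone 4 and at 82.2, 81.6 and 80.5 CPM in clone 5 with DMSO. The clones were far apart, by 5.18-fold (log2 fold change -2.37 ± 0.04, SE, edgeR adjusted p = 1.3e-37), and by the same log2 fold change of -2.37 with HyT36. Neighbours within 1 Mb had a median of -0.15 over 20 genes. The remaining tested fibrillar genes, COL1A1, COL1A2, COL5A2, COL11A2 and COL27A1, did not pass without ligand, with log2 fold changes of -0.57 to 0.18. COL1A1, the main chain of bone and skin collagen, was at 6.73, 5.85 and 5.24 CPM in clone 4 and at 5.75, 5.30 and 5.54 CPM in clone 5, which overlap (-0.10 ± 0.13, edgeR adjusted p = 0.53).

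COL24A1, a fibrillar collagen of developing bone, had too few reads for the test. Clone 4 gave 4, 2 and 6 reads under DMSO and 14, 5 and 6 under HyT36, while all 6 clone 5 libraries had 0. Against a floor of 3 reads over a group it was at least 4.30-fold lower in clone 5 with DMSO and at least 7.28-fold lower with HyT36. COL3A1, the fibrillar collagen of skin and vessels, was also too low for the test, with 18 reads in clone 4 DMSO replicate 1 and 1 to 10 reads elsewhere.

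Collagen IX, a heterotrimer that decorates COL2A1 fibres, changed its mix of chains. Under DMSO COL9A1 had 12, 10 and 16 reads for clone 4 and 0, 0 and 0 for clone 5, at least 13.6-fold lower against a floor of 3 reads over the group (edgeR adjusted p = 1.3e-06). With HyT36 it had 31 reads in clone 4 and 1 in clone 5, a ratio of 27.1 with an exact 95% binomial interval of 4.51 to 1103. COL9A3 was at 7.36, 7.02 and 7.78 CPM in clone 4 and at 4.83, 4.71 and 4.45 CPM in clone 5 with DMSO, 1.59-fold lower (log2 fold change -0.66 ± 0.13, SE, edgeR adjusted p = 4.2e-05). COL9A2 went the other way, from 0.592, 0.706 and 0.375 CPM in clone 4 to 1.50, 1.44 and 1.31 CPM in clone 5, 2.52-fold higher (1.33 ± 0.32, edgeR adjusted p = 5.9e-04). The clones' libraries did not overlap for any of the 3 chains, in a comparison where 55.5% of all genes tested passed.

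COL19A1, a related collagen of basement membrane zones, lies next to COL9A1 on chromosome 6 (69866556 to 70212468, beside 70215061 to 70303084) and differed in the opposite direction. It was at 4.74, 3.92 and 4.54 CPM in clone 4 and at 7.42, 7.07 and 7.91 CPM in clone 5 with DMSO, 1.70-fold higher with no overlap (log2 fold change 0.76 ± 0.12, SE, edgeR adjusted p = 1.7e-06). At these coordinates COL19A1 and COL9A1 do not overlap. Read strand was not given in the sources used here, so reads where other neighbouring genes overlap could not be separated.

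COL8A2, a network collagen of the corneal endothelium's basement membrane, was nearly silent in clone 5. It had 67, 91 and 111 reads in clone 4 and 4, 2 and 1 in clone 5 with DMSO (log2 fold change -5.29 ± 0.36, SE, edgeR adjusted p = 2.7e-16; -5.94 without clone 5 DMSO replicate 1). With HyT36 it had 268 reads in clone 4 and 3 in clone 5, a ratio of 78.0 with an exact 95% binomial interval of 26.4 to 380.6. These intervals cover counting error only.

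COL18A1, COL26A1 and COL25A1 passed without ligand with differences under 2-fold. COL18A1, the source of endostatin in vessel and epithelial basement membranes, was at 18.9, 17.5 and 20.2 CPM in clone 4 and at 23.9, 29.5 and 27.2 CPM in clone 5, 1.43-fold higher with no overlap (log2 fold change 0.51 ± 0.08, SE, edgeR adjusted p = 2.6e-07). COL26A1 was at 23.6, 23.1 and 20.3 CPM in clone 4 and at 13.5, 13.1 and 13.2 CPM in clone 5, with no overlap (-0.75 ± 0.08, edgeR adjusted p = 4.4e-11). COL25A1, a transmembrane collagen of neurons, was at 15.9, 12.5 and 14.6 CPM in clone 4 and at 12.3, 11.4 and 11.2 CPM in clone 5 (-0.30 ± 0.09, edgeR adjusted p = 0.0034). Its groups were only narrowly apart, and without clone 4 DMSO replicate 1 it did not pass (-0.22, edgeR adjusted p = 0.052).

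Collagen VI, the beaded-filament collagen around most cells, needs COL6A1, COL6A2 and a further chain. COL6A1 was at 106.3, 108.4 and 107.0 CPM in clone 4 and at 114.1, 117.1 and 120.5 CPM in clone 5 with DMSO, a small difference without overlap (log2 fold change 0.13 ± 0.04, SE, edgeR adjusted p = 0.0059). COL6A2 was at 33.9, 35.7 and 30.9 CPM in clone 4 and at 30.4, 33.6 and 30.1 CPM in clone 5, which overlap (-0.10 ± 0.06, edgeR adjusted p = 0.21). The usual further chain, COL6A3, had at most 9 reads in a library, COL6A6 at most 3, and COL6A5 none.

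A pair of members passed between the clones with HyT36 and not without. COL7A1, the anchoring-fibril collagen below the epidermis, was at 0.216, 0.185 and 0.0770 CPM in clone 4 and at 0.544, 0.521 and 0.679 CPM in clone 5 with HyT36 (log2 fold change 1.82 ± 0.51, SE, edgeR adjusted p = 0.0026), and its log2 fold change without ligand was 0.91 (edgeR adjusted p = 0.12). Its reads with HyT36 were few, at 6, 5 and 2 in clone 4 and 13, 12 and 16 in clone 5. Within the 6 libraries with fewer epithelial transcripts, clone 4 HyT36 replicate 1 was the only clone 4 HyT36 library. There COL7A1 was at 1.41, COL9A2 at 0.93 and LAMC3 at -0.23 with HyT36. Over all libraries LAMC3 was at -0.27 (edgeR adjusted p = 0.005). LAMC3 did not pass without clone 5 HyT36 replicate 1 (-0.21, edgeR adjusted p = 0.054). COL1A1 passed with the epithelial covariate (0.37) and without clone 4 HyT36 replicate 3 (0.37). Over all libraries it was at 0.22 (edgeR adjusted p = 0.16), and within those 6 libraries at 0.45. COL1A2, the partner of COL1A1, was at 0.0721, 0.222 and 0.462 CPM in clone 4 and at 1.47, 0.869 and 1.02 CPM in clone 5 with HyT36 (2.15 ± 0.51, edgeR adjusted p = 6.4e-04). Without clone 4 HyT36 replicate 3 it was 2.89. Within the 6 libraries with fewer epithelial transcripts it was 3.87, against 2 reads in clone 4 HyT36 replicate 1. The log2 fold change of COL1A2 without ligand was -0.57 (edgeR adjusted p = 0.37), and it was called lower in clone 5 with the epithelial covariate (-1.17, edgeR adjusted p = 0.042). Within the 6 libraries with more epithelial transcripts it was -1.26, where clone 4 DMSO replicate 1 was the only clone 4 DMSO library. Whether the clone difference changed with the ligand is the difference of responses, given further on, and neither gene passed it. COL25A1 passed with HyT36 at -0.20 (edgeR adjusted p = 0.044) and did not pass in 14 of 19 alternatives.

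The 26 untested members had between 0 and 18 reads in every library. COL20A1, COL22A1 and COL6A5 had 0 reads in all 12, and COL11A1, COL13A1, COL14A1, COL21A1 and COL28A1 had at most 2 in any. COL12A1, a fibril-associated collagen, differed between the sides of the epithelial split. Clone 4 gave 7, 0 and 2 reads under DMSO and 1, 17 and 11 under HyT36, and clone 5 gave 8, 6 and 10 under DMSO and 2, 3 and 1 under HyT36. The 6 libraries with more epithelial transcripts had 6 to 17 reads and the other 6 had 0 to 3, an observation made after the values were seen. In clone 5 the split and the ligand groups coincide and cannot be told apart.

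LAMB3, a beta chain of epithelial laminins, was low and highest in 1 library. It was at 1.65, 0.549 and 0.291 CPM in clone 4 with DMSO and at 0.109 to 0.795 CPM in the other 9 libraries. The highest value was in clone 4 DMSO replicate 1, which also had the highest epithelial sum. LAMA3, an epithelial alpha chain, did not show this, at 2 to 16 reads per library with the highest in clone 4 HyT36 replicate 3. In clone 4 with HyT36 LAMB3 was at 0.361, 0.777 and 0.501 CPM. In clone 5 it was at 0.292, 0.662 and 0.109 CPM with DMSO and at 0.795, 0.652 and 0.255 CPM with HyT36, where the epithelial sum was lower. LAMB3 did not pass in any of the 5 comparisons over all libraries. Without ligand its log2 fold change of clone 5 over clone 4 was -1.21 (edgeR adjusted p = 0.15). Within the 6 libraries with more epithelial transcripts it was -2.20, where clone 4 DMSO replicate 1 was the only clone 4 DMSO library. LAMB3 passed with the epithelial covariate (-1.80), without a filter on low counts (-1.21), without clone 4 DMSO replicate 3 (-1.61) and without clone 5 DMSO replicate 2 (-2.05).

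No collagen or laminin gene passed the test of HyT36 against DMSO in clone 4. None of the 30 members was called, where 5.57% of all genes tested did (830 genes), and at an unadjusted p under 0.05 there were 2 by edgeR, 4 by DESeq2 and 4 by limma-voom. DESeq2 called 1 member, COL2A1 (log2 fold change 0.08, adjusted p = 0.046). By edgeR COL2A1 went from 424.6, 425.3 and 415.8 to 442.5, 449.0 and 446.9 CPM, a shift without overlap of 0.08 ± 0.03 on the log2 scale (SE, adjusted p = 0.17). LAMC3 had the smallest p, from 16.3, 16.8 and 18.9 to 19.8, 20.3 and 20.9 CPM, again without overlap (0.23 ± 0.08, edgeR adjusted p = 0.096). The median of the 30 members was 0.01, beside 0.00 over all genes tested.

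In clone 5 LAMC1, COL18A1 and COL1A2 passed as higher with HyT36 than with DMSO, and no member passed as lower. These were 3 of 30, where 8.19% of all genes tested passed and 3.35% passed upward, and 9 members had an unadjusted p under 0.05 by edgeR. The median of the 30 members was 0.10, beside -0.0045 over all genes. LAMC1 rose from 330.0, 345.6 and 352.2 to 395.8, 411.8 and 374.5 CPM, 1.15-fold without overlap (log2 fold change 0.20 ± 0.04, SE, edgeR adjusted p = 3.2e-04), and it passed in all 19 alternatives run, at 0.17 to 0.24. COL18A1 rose from 23.9, 29.5 and 27.2 to 34.4, 32.0 and 30.2 CPM, also without overlap (0.26 ± 0.07, edgeR adjusted p = 0.018). It did not pass without clone 5 DMSO replicate 1 (0.19, edgeR adjusted p = 0.19) or without clone 5 HyT36 replicate 1 (0.21, edgeR adjusted p = 0.13).

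COL1A2 rose on few reads. It had 7, 11 and 11 reads with DMSO and 35, 20 and 24 with HyT36 in clone 5, which do not overlap (log2 fold change 1.59 ± 0.48, SE, edgeR adjusted p = 0.036). It did not pass in 9 of 18 alternatives, among them limma-voom (adjusted p = 0.079), the replicate block (edgeR adjusted p = 0.075), leaving out clone 4 HyT36 replicate 2 (edgeR adjusted p = 0.055) and leaving out any 1 clone 5 library (1.35 to 1.74, edgeR adjusted p = 0.056 to 0.17). DESeq2 gave COL1A2 no adjusted p (log2 fold change 1.62) and called COL6A1 (0.12, adjusted p = 0.034). In clone 4 COL1A2 had 21, 16 and 3 reads with DMSO and 2, 6 and 12 with HyT36. Beside these rises, the summed epithelial markers went from 68.7 to 93.6 CPM with DMSO to 6.73 to 8.21 CPM with HyT36 in clone 5, and the fibroblast markers from 164.3 to 181.5 CPM to 206.8 to 213.9 CPM. Within the fibroblast sum FN1 went from a mean of 98.3 to 122.3 CPM in clone 5 (edgeR adjusted p = 0.31). Of the 8 tested fibroblast markers 1 passed as higher and 0 as lower, where 3.35% of all genes tested passed upward. Their median log2 fold change was 0.25. No clone 5 value within 1 side of the epithelial split could be had. With the epithelial sum as a covariate LAMC1, COL18A1 and COL1A2 passed, as did LAMB3 (1.94). That sum did not overlap between the ligand groups of clone 5, so this fit cannot tell the ligand and the sum apart there.

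**Figure D4:**
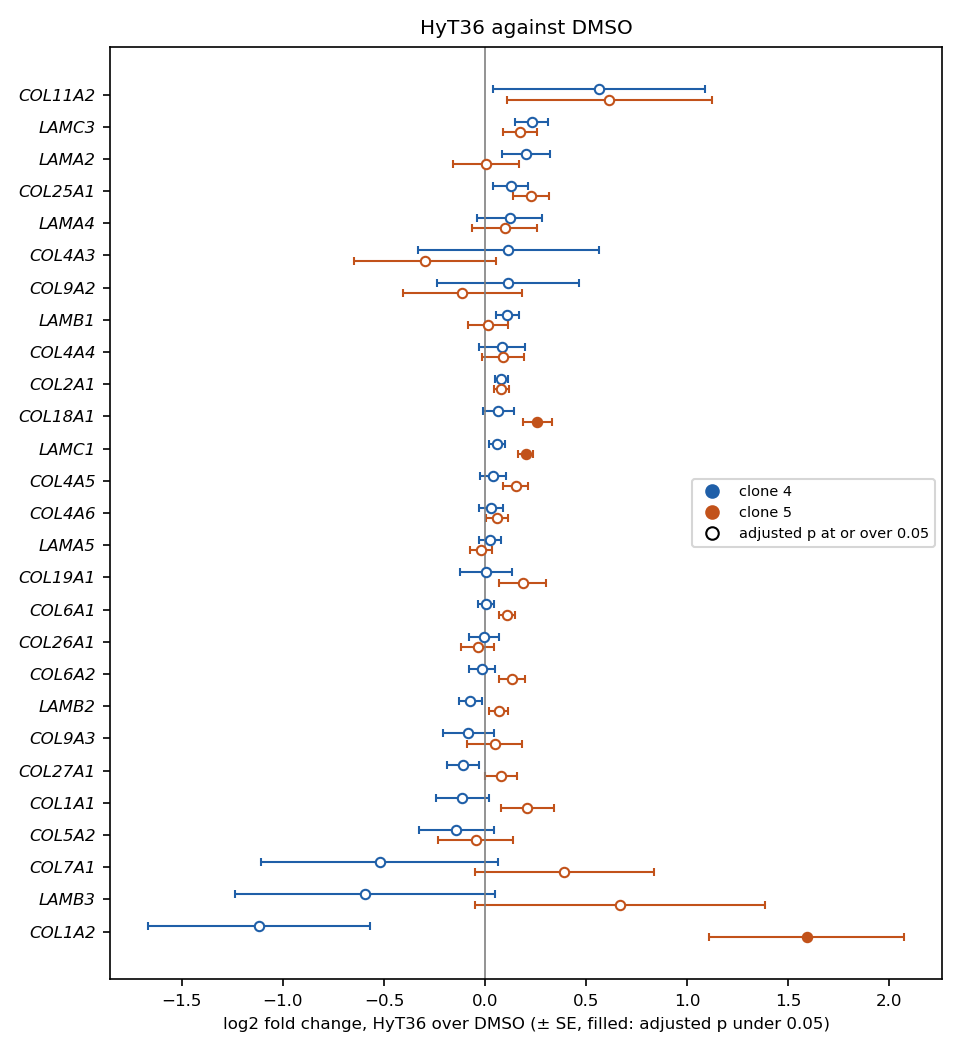
Log2 fold change of HyT36 over DMSO (x axis, ± SE) for 27 tested members (y axis), clone 4 in blue and clone 5 in orange; filled points passed an adjusted p of 0.05. COL8A2 and COL9A1 are left out for low reads. Only LAMC1, COL18A1 and COL1A2 in clone 5 are filled.

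The response to HyT36 was not shown to differ between the clones for any member. None of the 30 passed the test of the difference, where 0.302% of all genes did (45 genes), and those with an unadjusted p under 0.05 were 2 by edgeR and 3 each by DESeq2 and limma-voom. The largest difference with such a p was that of COL1A2, at 2.71 ± 0.73 on the log2 scale (SE, edgeR adjusted p = 0.15). It passed without clone 4 DMSO replicate 3 (3.18, edgeR adjusted p = 0.016), without a filter on low counts (edgeR adjusted p = 0.0059) and with the epithelial covariate (4.13, edgeR adjusted p = 0.0013), where LAMB3 passed too (2.76, edgeR adjusted p = 0.043). For LAMC1 the difference was 0.14 ± 0.05 (edgeR adjusted p = 0.41).

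Genes that make, export and receive these chains were taken from lists drawn up with earlier results of these data known, and their counts are to be read against the 55.5% of all genes called without ligand (27.3% higher, 28.2% lower). Of 19 tested enzymes and chaperones of the collagen chain, 5 were higher and 8 lower in clone 5 without ligand, and 4 and 6 with HyT36. SERPINH1, the collagen-specific chaperone, was at 315.9 ± 6.01 CPM in clone 4 and 207.2 ± 4.83 CPM in clone 5 (SD, n = 3; log2 fold change -0.61, edgeR adjusted p = 4.3e-17). The prolyl isomerase gene FKBP10 (-0.28) and the prolyl hydroxylase gene P4HA2 (-0.32) were lower and the lysyl hydroxylase gene PLOD3 (0.20) higher. Of 13 export and trimming genes 5 were higher and 5 lower (4 and 6 with HyT36), with the procollagen N-proteinase gene ADAMTS2 at -2.12, the transport complex gene TRAPPC2 at 0.87, the C-proteinase family gene TLL2 at 2.17 and the cargo receptor gene MIA2 at -0.51. Among 5 crosslinking enzymes LOX, the lysyl oxidase that acts on fibrillar collagen, was lower (from 22.3 ± 2.17 to 2.38 ± 0.230 CPM, SD, n = 3; -3.23, edgeR adjusted p = 6.6e-26), LOXL3 was lower (-0.99) and LOXL1 higher (1.06).

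Of 12 basement membrane partners 1 was higher and 8 were lower in clone 5, and of 15 receptors 1 was higher and 9 were lower, where 28.2% of all genes were lower. With HyT36 1 partner was higher and 7 were lower, and 1 receptor was higher and 8 were lower. The partners that were lower included NPNT, an integrin ligand of the kidney (-3.38), the proteoglycan genes AGRN (-0.52) and HSPG2 (-0.88), and FRAS1 was the higher one (0.82). The median log2 fold changes were -0.52 for partners and -0.42 for receptors without ligand and -0.21 and -0.16 with HyT36, beside 0.0017 and -0.0047 over all genes. Lower receptors included the syndecan gene SDC2 (-1.55), the laminin-binding integrin gene ITGA3 (-2.99), the collagen-binding integrin gene ITGA1 (-2.02) and the tetraspanin gene CD151 (-0.46). Of 5 hemidesmosome genes, PLEC was higher (0.53) and CD151 and ITGA6 (-0.18) were lower.

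Of 13 proteases and inhibitors 3 were higher and 2 lower without ligand and 3 higher and 6 lower with HyT36, where 56% of all genes passed. Without ligand the membrane protease gene MMP15 was at -3.53, the inhibitor genes TIMP1 and TIMP3 at 1.34 and -1.36, and MMP11 at 0.73. Of 13 genes of the TGF-beta response, a pathway known to induce collagen genes, 3 were higher and 6 lower without ligand (2 and 5 with HyT36), among them TGFB2 (-3.44), PMEPA1 (-2.70), CCN2 (-1.04) and, higher, SMAD7 (0.60). Of the 91 tested genes of these lists, 5 passed between HyT36 and DMSO in clone 4 (5.49%) and 7 in clone 5 (7.69%). These shares were near the 5.57% and 8.19% of all genes. In clone 4 CRTAP, a collagen hydroxylation cofactor, rose (0.17) and so did FBLN1 (0.17), while SDC1 (-0.19), ADAMTS1 (-0.54) and CCN2 (-0.79) fell. In clone 5 ADAMTS3 (0.34), FREM2 (0.19) and MMP15 (0.60) rose and NPNT (-1.14), SDC1 (-0.22), CCN2 (-0.54) and PMEPA1 (-1.25) fell (edgeR adjusted p between 2.9e-08 and 0.049 over both clones). Of these lists, the response differed between the clones for MMP15 alone (edgeR adjusted p = 0.04).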

How the data were processed

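RNA of frozen pellets was polyA-selected for the bulk libraries, per the labels' protocols. The authors deposited 1 table of raw counts per gene, per the file headers. The submitters' processing notes name GRCh38 and Cell Ranger 7 without saying whether these libraries used them. Aligner, annotation and strand: not given in the sources used here. Summary entries (16.1 to 17.6% of a library's counts) and 22344 guide features were left out, and 0 guide features named a member. Columns were matched to samples by name.

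Counts were tested with edgeR 4.0.16 (R 4.3.3): filterByExpr by group, TMM, 1 model of 4 group means over 12 libraries, robust quasi-likelihood F-tests (two-sided) and Benjamini-Hochberg adjustment over 14892 genes. SE was computed as the absolute log2 fold change over √F, and fitted fold changes use a prior count of 0.125. DESeq2 1.42.0, limma-voom 3.58.1, other scaling, no filter, a replicate block, each clone alone, an epithelial covariate, the epithelial split and leaving out each library were the alternatives. The code was tested on simulated counts.

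Members, lists and rules were chosen with earlier results of these data known. Values per library are given, by rule, for up to 12 members per comparison that passed, taken by smallest p, and for chains of the same trimer. The remaining members that passed were added after their values were seen. Of each other list, up to 4 genes with the smallest p per comparison are named. Whether replicates were separate cultures is not stated, so the p-values reflect the spread of these libraries alone, which may be technical. Replicates differed beyond counting noise (chi-square per degree of freedom 1.90 to 8.15). Coordinates and promoters are RefSeq's on GRCh38.p14, matched by symbol. For 1 tested member, included in the counts, values are not reported here.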

Additional observations from a re-analysis of the deposited data

How the results depend on the processing

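Counts of members called in the clone comparisons stayed within 18 to 22 under every alternative run, the epithelial split left aside. In clone 4 the ligand response had 0 called members, 1 with DESeq2 (COL2A1) and 1 with the epithelial covariate. In clone 5 it had 3, 5 with the epithelial covariate, and 1 to 3 when 1 library was left out. The difference of responses had 0, 1 without a filter on low counts, 3 with the covariate, and 0 to 1 when 1 library was left out. The causes were not tested. With the replicate number as a block the counts were 0, 2, 0, 19 and 20 in the 5 comparisons. Libraries of the same number did not deviate together (correlations of -0.54 to 0.16), so the numbers were not taken as pairs. Over all genes, calls in clone 4 fell from 830 to 417 without clone 4 HyT36 replicate 3, and in clone 5 from 1219 to 757 without clone 5 DMSO replicate 1. The 45 calls of the difference became 12 with limma-voom, 169 without the filter and 262 with the covariate, and 26 to 143 when 1 library was left out. With DESeq2 48.66% of clone 4 calls and 50.9% of clone 5 calls were rises, against 39.64% and 40.94%. The epithelial split could not be fitted for the clone 5 response or the difference of responses. For the other comparisons it left only 1 library in a clone 4 group, so its values there rest on that library. With 3 libraries a group, members at a few reads could not be compared beyond their counting error.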
